A study of Mus musculus with 10 samples.

Results

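The list of m6A peaks called in the liver of pre-weaning mice at 2 weeks of age held 8765 peaks in 5521 genes. These peaks were all rows of the table that sets the IP library over the input library of that age, and they were compared with the 3 other distinct lists of the series, which held 10161 peaks at day 1, 9070 at 1 week and 4808 at 8 weeks, for 32804 peaks in all. The livers came from wild-type (WT) C57BL/6J mice at 2 weeks, and at day 1, 1 week and 8 weeks for the other lists, with no treatment, and the labels gave 1 IP and 1 input library per age. The study's methods named 2 animals per age, and how they were combined was not given in the sources used here. Each age is thus 1 list, no spread between animals could be had, and the intervals given below (95%, Wilson, or Newcombe for a difference) cover counting error only. Peaks were called on whole liver, in which fewer cells of a type and less RNA per cell cannot be told apart, and a gene without a row in a list may have been too weakly sequenced there, since the read depth of the libraries is unknown.

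m6A, N6-methyladenosine, is the most abundant internal modification of mRNA in mammals. It is laid down during transcription by a complex of METTL3, the catalytic subunit, and METTL14, with the adaptors WTAP, VIRMA, ZC3H13, HAKAI and RBM15, at adenosines within the consensus DRACH (D is A, G or U, R is A or G, H is A, C or U), it is removed by FTO and ALKBH5, and it is read by the YTH proteins. It is known to gather around stop codons and in long internal exons, while the exon junction complexes that splicing leaves behind keep short exons free of it. In the liver of suckling mice blood formation fades, hepatocytes still divide and the enzymes of the adult organ come up, while the pups burn the fat of the milk.

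The sequence under a single peak is given for Ankrd50, the strongest of the peaks that were at most 300 nt wide. This peak (chr3:38456283-38456523, minus strand, GRCm38/mm10, exon 3 of 4, fold 621) was 241 nt wide and was overlapped by a peak in each of the 3 other lists. It held 5 copies of GGAC, the core of the strongest DRACH forms. Such a number is not typical of strong peaks of this width, since that of Ube2o (299 nt, fold 571) held 0 copies. The copies in Ankrd50 are all in capitals here.
Ankrd50: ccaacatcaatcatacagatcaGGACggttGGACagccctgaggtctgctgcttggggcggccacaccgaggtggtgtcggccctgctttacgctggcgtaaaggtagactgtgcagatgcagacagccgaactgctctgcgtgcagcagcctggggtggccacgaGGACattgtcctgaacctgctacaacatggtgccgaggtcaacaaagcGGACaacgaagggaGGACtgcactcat

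Shorter windows from the strongest peak that could be placed whole on the transcript are given for genes on which the results below turn. The copy in capitals is the GGACT nearest to the middle of the peak, or the nearest GGAC where the peak held no GGACT, and other copies stay in lower case. Each is read 5′ to 3′ on the transcript from GENCODE M21 on GRCm38/mm10, and GGACT was sought before GGAC because it was the 5-base form most enriched in the list. Ahr and Brwd1 are among the strongest coding peaks. Cebpa, Ppara, Cited2 and Foxa2 are liver transcription factors, and Rbm15 and Rbm15b encode adaptors of the methylation complex. Scd1, Aldh1a1, Cyp4a12a and Qdpr had peaks at 2 weeks and in no other list.
Ahr, chr12:35504058-35504086, minus strand, CDS, exon 10: ccagcttacaggGGACTgctcaggaattt
Brwd1, chr16:96002320-96002348, minus strand, CDS, exon 41: ctgggaggatttGGACTatgcaaaagcta
Cebpa, chr7:35120589-35120617, plus strand, 3′ UTR, exon 1: ccgcgcaagccaGGACTaggagattccgg
Ppara, chr15:85801283-85801310, plus strand, 3′ UTR, exon 8: gccactgttcagGGACctccgaggcctg
Cited2, chr10:17724701-17724729, plus strand, CDS, exon 1: tgattttatgacGGACTtcgtgtgcaagc
Foxa2, chr2:148043676-148043703, minus strand, CDS, exon 3: gccccacaaaatGGACctcaaggcctac
Rbm15, chr3:107331178-107331206, minus strand, CDS, exon 1: cagaggtgatcgGGACTtgcccagcagca
Rbm15b, chr9:106885317-106885345, minus strand, CDS, exon 1: ctttttggaaggGGACTggaccagcctca
Scd1, chr19:44394868-44394895, minus strand, 3′ UTR, exon 6: atcagctcaggaGGACactctgggagag
Aldh1a1, chr19:20643261-20643289, plus strand, 3′ UTR, exon 16: atttggtgaggaGGACTagttgtgactta
Cyp4a12a, chr4:115331999-115332026, plus strand, 3′ UTR, exon 12: ataatcttcacaGGACaagacagctcaa
Qdpr, chr5:45434141-45434169, minus strand, 3′ UTR, exon 7: gtaaaacccaatGGACTctgttgtgatat

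Peaks on marker genes of liver cell types were counted first. A peak gives enrichment of IP over input and not the amount of a cell type, so these counts cannot test the liver label. Of 10 hepatocyte markers, 7 had a peak in any list and 5 had one at 2 weeks, where over all genes 63.9% of those with a peak in any list were called. The same share over all genes was 73.3% at day 1, 64.0% at 1 week and 39.9% at 8 weeks, so that counts of members called are to be read against a different share at each age. These were Apob, the structural protein of very low density lipoprotein, Fga, a fibrinogen chain, Tat, which degrades tyrosine, and Cps1 and Ass1 of the urea cycle. Hnf4a and Apoa1 had no 2-week peak. Markers of the other cells that whole liver holds also carried peaks. At 2 weeks 9 of 12 endothelial markers with a peak in any list were called (Cdh5, the endothelial cadherin, at fold 578, Flt4 at 204), as were 8 of 12 stellate and mesenchymal markers (Pdgfrb at 446), 5 of 11 Kupffer and myeloid markers (Clec4f, a lectin of Kupffer cells, at 185) and 4 of 5 cholangiocyte markers. Erythroid markers were called in 12 genes at day 1, 8 at 1 week, 5 at 2 weeks and none at 8 weeks, out of 15, and neutrophil and lymphocyte markers in 7, 6, 2 and 1 of 9. Their part in the differences between lists was not tested.

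Most genes in the list carried 1 peak. At 2 weeks 3629 of 5521 genes (65.7%, 64.5 to 67.0) had 1 peak, 1162 had 2, 432 had 3, 163 had 4, and 135 (2.45%) had 5 or more, with a mean of 1.59. The share with 1 peak was close to that at day 1 (difference 1.40 points, -0.322 to 3.12) and at 1 week (1.57 points, -0.206 to 3.35), and it was lower than at 8 weeks (65.7% at 2 weeks, 74.4% at 8 weeks, difference -8.69 points, -10.6 to -6.76). The 8-week list was also the shortest. Genes with more peaks had longer transcripts. The median longest coding transcript was 3292 nt for 1 peak, 4296 nt for 2, 5538 nt for 3 or 4 and 8241 nt for 5 or more, against 2674 nt over all annotated coding genes, and the median longest exon was 1626, 2299, 2930 and 4300 nt in the same order. Across 5149 genes, which are not independent replicates, Spearman's rho of peaks per gene and transcript length was 0.343.

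**Figure D1:**
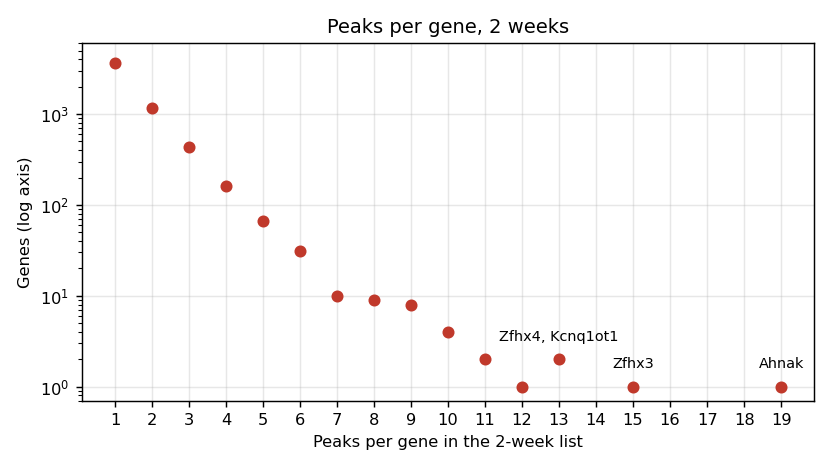
Number of genes (log axis) by the number of 2-week peaks per gene. 3629 genes had 1 peak, the counts fall with each further peak, and Ahnak stands alone at 19.

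The genes with most peaks had very long transcripts. Ahnak, a very large scaffold protein encoded almost wholly by 1 exon, had 19 peaks along 18100 nt, with folds between 6.73 and 400, against 16 peaks at day 1, 20 at 1 week and 11 at 8 weeks. Zfhx3, a zinc finger and homeobox factor, had 15, and its relative Zfhx4 had 13. EPPK1, the plakin epiplakin, had 12, Hivep1 had 11, and Spen, a transcriptional co-repressor that binds Xist RNA, had 11 with a median fold of 62.6, which was the highest of the 10 genes with most peaks. Spen had 3 peaks at day 1, 10 at 1 week and 10 at 8 weeks, while Hivep1 had 9, 11 and 1. Apob, Stard9 and Zfp292 had 10 each. The peaks of Apob were weak for their number (median fold 4.92, highest 23.8), and 7 of them lay in its very long exon 26.

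A gene outside the coding set was among them. Kcnq1ot1, the antisense RNA that silences an imprinted cluster in cis, had 13 peaks at 2 weeks, against 16 at day 1, 12 at 1 week and 2 at 8 weeks, and its strongest (chr7:143258371-143259181, fold 131) was overlapped at day 1 and 1 week. Gm8995, a transcribed pseudogene with near-identical relatives, had 10 peaks that shrank to 8 loci when overlapping rows were joined, so that its values are uncertain. Of all 2-week peaks, 344 (3.92%) shared bases with another row of the list, and joining them left 8586 loci, of which 102 carried the names of more than 1 gene.

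Peaks fell mainly in coding sequence and the 3′ UTR. The authors' class was CDS for 3912 peaks (44.6%, 43.6 to 45.7), three_prime_utr for 3086 (35.2%), exon for 1373 (15.7%), five_prime_utr for 375 (4.28%), stop_codon for 11 and start_codon for 8. Against the other lists the shares moved by at most a few points. The CDS share was 2.34 points lower at 2 weeks than at 1 week (44.6% against 47.0%, -3.80 to -0.873) and higher than at day 1 (44.6% against 43.2%, difference 1.45 points, 0.0296 to 2.86). The 3′ UTR share was lower than at 8 weeks (35.2% against 37.1%, difference -1.94 points, -3.63 to -0.250), the exon share was lower than at day 1 (15.7% against 16.9%, difference -1.28 points, -2.33 to -0.226), and the 5′ UTR share was higher than at 1 week (4.28% against 3.67%, difference 0.607 points, 0.0334 to 1.18) and at 8 weeks (4.28% against 3.33%, difference 0.951 points, 0.272 to 1.60).

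The classes differed in strength and width. Of the 4 largest classes CDS had the strongest and widest peaks, with a median fold of 21.1 (quartiles 10.5 and 53.9) and a median width of 270 nt. 3′ UTR peaks had a median fold of 15.8 and a width of 211 nt, exon peaks 16.4 and 231 nt, and 5′ UTR peaks 13.5 and 204 nt, while the 11 stop_codon peaks had 21.8 and 270 nt. The 5′ UTR peaks included those of Hand2 (fold 111), a stellate cell factor, of Bhlhe40 (104), a clock-linked repressor, and of Jun (303), the AP-1 subunit, whose 5′ UTR peak was overlapped in all 3 other lists. Of the 10 protein-coding genes with the highest fold, 8 had it in a CDS peak. Brwd1, a bromodomain protein, reached 1550 in its last exon, Bcl9l, a co-activator of β-catenin, 1330, Ahr, the receptor for dioxin and tryptophan metabolites, 1120, and Arhgap5 1080. The exceptions were Scd1 (1790, 3′ UTR) and Rreb1 (1050, class exon).

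**Figure D2:**
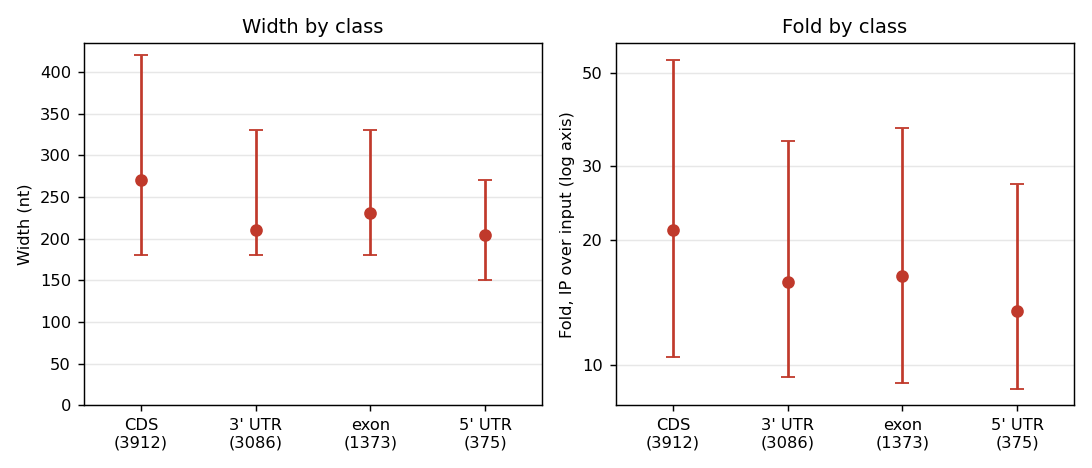
Width (left, nt) and fold of IP over input (right, log axis) of the 2-week peaks by class, with the number of peaks in brackets. Points are medians and bars run from the lower to the upper quartile. Of the 4 classes drawn, CDS peaks had the highest medians, 270 nt and 21.1-fold.

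The class exon was a mixture. Of its 1373 peaks, 909 belonged to protein-coding genes and 464 to others. When the middle of each of the 909 was placed on the longest coding transcript of its gene, 472 (51.9%) lay in the CDS, 292 (32.1%) in the 3′ UTR, 46 (5.06%) in the 5′ UTR and 99 (10.9%) off that transcript. Rbm15 shows this, since all 3 of its peaks were classed exon and lay in the coding sequence of its first exon. For the CDS class 98.4% of middles fell in the CDS, and for the 3′ UTR class 96.7% fell in the 3′ UTR. An exception was the widest peak of the list, in Ankrd11, which was classed three_prime_utr and lay in the coding part of exon 9.

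On transcripts the peaks gathered at the stop codon. The middle of 8113 of 8288 peaks of protein-coding genes (97.9%) could be placed, and 1999 of these (24.6%, 23.7 to 25.6) lay within 200 nt of the stop codon, against 11.1% for middles spread evenly over the same transcripts, a ratio of 2.22. In bins of 100 nt the ratio to the even spread was 2.18 just before the stop codon, 2.61 in the first 100 nt after it and 2.60 in the next 100 nt, and it was under 1 from 500 nt after it. Peaks of transcription factors that covered the stop codon included those of Cebpa (chr7:35120161-35120940, fold 120), Ppara (chr15:85801021-85801561, fold 191), Foxa2 (chr2:148043417-148043987, fold 279) and Nr2f2 (chr7:70354340-70354879, fold 122).

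**Figure D3:**
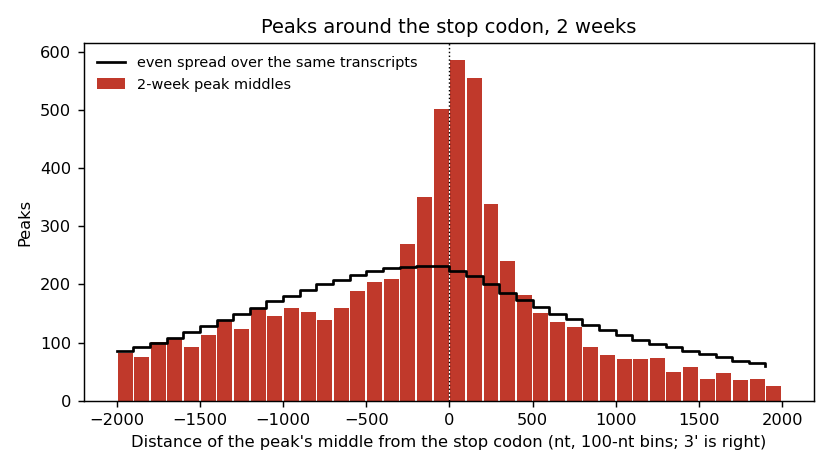
Number of 2-week peak middles (bars, 100-nt bins) by distance from the stop codon in nt along the longest coding transcript, with the number for an even spread over the same transcripts (line). The bin from 0 to 100 nt after the stop codon held 586 peaks, against 224 for the even spread.

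Long exons held nearly all peaks. An exon of at least 400 nt held 7471 middles (92.1%, 91.5 to 92.7), against 69.8% for the even spread. The last exon of most genes is long, and with last exons left out the share was 80.6% of 2766 middles, against 48.6%. Within 100 nt of an exon junction lay 444 middles (5.47%, 5.00 to 5.99), against 31.6% for the even spread. By transcript region as a whole the shares were near the even spread, with 54.1% in the CDS (51.4% for the even spread), 40.8% in the 3′ UTR (41.1%) and 5.07% in the 5′ UTR (7.45%). The values of the other lists were close, with 24.9% to 26.1% of middles within 200 nt of the stop codon and 92.3% to 94.1% in long exons.

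Peaks with more than 1 block, which skip an intron, were few. They numbered 334 (3.81%, 3.43 to 4.23), with 246 of 2 blocks, 61 of 3 and 27 of 4 or more, and 99.4% of their 467 junctions lay on annotated exon edges. The share was lower than at day 1 (3.81% against 4.75%, difference -0.943 points, -1.52 to -0.364) and higher than at 1 week (3.81% against 3.19%, difference 0.624 points, 0.0849 to 1.17) and at 8 weeks (3.81% against 2.48%, difference 1.34 points, 0.724 to 1.92). It was 6.06% in the CDS class and 1.00% in the 3′ UTR class. These peaks had a median width of 360 nt over a median genomic span of 676 nt, and a median fold of 27.5, against 17.6 for peaks of 1 block.

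Several of the peaks with most blocks lay in short liver mRNAs. Gstp1, a glutathione transferase, had the peak with most blocks, 7 (chr19:4035640-4037892, minus strand, fold 44.8), and it covered 60.3% of the longest transcript. Orm1, the acute phase protein orosomucoid, had 6 blocks, a fold of 455 and 84.5% of the transcript, and Mup20, the urinary pheromone carrier darcin, had 6 blocks, a fold of 178 and 67.8%. None of these 3 peaks was overlapped in another list, and each of the genes has close relatives (Gstp2, Orm2 and the other Mup genes) with which reads could be shared. The others of 6 blocks were in Ehmt1, a histone methyltransferase, Psmd1, a proteasome subunit, Itsn2 and Incenp. A peak covered at least 50% of the longest coding transcript in 45 cases, 9 of them with more than 1 block, while the median peak covered 5.90%. Cyp8b1, the sterol 12α-hydroxylase of bile acid synthesis, was covered to 72.3% by a peak in its only exon, and Jund, an intronless AP-1 gene, to 66.1%. Names in this list of covered transcripts were chosen after their values were seen.

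Peak widths followed the steps of the caller. The median was 240 nt (quartiles 180 and 361), the narrowest 113 nt, and 89.3% of the widths of 1-block peaks lay within 1 nt of a multiple of 30. Joined, the blocks of all peaks covered 2694373 nt. The widest peak, 3898 nt, lay in exon 9 of Ankrd11, a chromatin co-regulator, at fold 188 and covered 46.1% of the transcript. It was followed by Plec (2520 nt), the cytolinker plectin, Cep250 (2519 nt), Mki67 (2456 nt), the proliferation marker Ki-67, and H6pd (2275 nt), which makes NADPH in the endoplasmic reticulum. Wider peaks were stronger, with Spearman's rho of 0.734 between width and fold over 8765 peaks that share the same 2 libraries.

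The folds ran from 1.22 to 1790, with quartiles of 9.72, 17.6 and 42.7. Many weak folds fell on fixed steps. Of 1936 folds from 5 to under 10, 79.4% were whole multiples of 0.585 within 0.01 (an even spread gives 3.42%), and 225 peaks had the fold 8.20 exactly as written. An FDR above 0.05 was listed for 319 peaks (3.64%), against 1.34% at day 1, 2.70% at 1 week and 14.1% at 8 weeks.

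Protein-coding genes held 8288 peaks (94.6%, 94.1 to 95.0) in 5171 genes. Of the rest, 116 peaks were on antisense RNAs, 112 on lincRNAs, 81 on processed pseudogenes, 50 on processed transcripts and 44 on genes of the biotype TEC. Their median fold was 15.7 against 18.2 for protein-coding genes. The labels name a poly-A selected library from a kit that does not mark strand, the methods describe removal of rRNA and a smart-seq library, and which of them holds for these libraries is not settled. No source used here states that reads were counted by strand, so reads of a gene and of its antisense partner may not be told apart. Of the 2-week peaks 340 (3.88%) overlapped a peak assigned to the opposite strand, among them 47 of the 116 antisense peaks. The antisense RNA Gm17634 reached a fold of 370, D030055H07Rik 231, the lincRNA Gm26508 270 and the pseudogene Zbed4-ps1 251, and the last shares sequence with its parent gene. Neat1, the scaffold RNA of paraspeckles, had 7 rows that formed 4 loci, and Tug1 had 7. These 2 genes were chosen after their values were seen. Xist, the RNA of the inactive X chromosome, had 4 rows with folds up to 11.7, and Kdm5d of the Y chromosome had 1 with a fold of 7.03.

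The mitochondrial genome gave 13 peaks. The rRNAs mt-Rnr1 (fold 572) and mt-Rnr2 (fold 167) were covered over 925 and 1582 nt, and were called at day 1 but not at 1 week or 8 weeks. The 11 peaks on mitochondrial mRNAs had folds between 1.35 and 7.74, and those of mt-Nd2 and mt-Nd6 covered the whole gene. The sources differ on whether poly-A RNA was selected or rRNA was removed.

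GGAC was more frequent in peaks than beside them. On the transcript strand, 5524 of 7501 peaks (73.6%, 72.6 to 74.6) held GGAC, against 60.5% of equally wide windows drawn from other places of these transcripts, or 5.81 against 3.90 copies per kb. DRACH was in 98.4% of peaks and in 97.4% of windows, so that its presence hardly separates them, and 24.2 against 19.5 copies per kb. CAGG, an anagram of GGAC used as a control, was in 77.3% of peaks and 74.7% of windows, with 7.28 against 6.27 copies per kb. Within DRACH the 5-base forms differed. GGACT was 1.68 times as dense in peaks as outside, GGACA 1.56 times, AGACT 1.48 times and GGACC 1.41 times, while TAACT, at 0.815, was less dense in peaks. With each peak divided into 10 equal bins, the 2 middle bins held 22.2% (21.5 to 22.9) of GGAC copies and the 2 outermost bins 15.7%, where an even spread would give equal shares. Copies of the control CAGG leaned the same way but less, with 20.9% and 18.5%.

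By class, GGAC was in 78.2% of CDS peaks (61.2% of windows), 75.9% of exon peaks (63.1%), 71.3% of 5′ UTR peaks (51.8%) and 68.0% of 3′ UTR peaks (59.8%). Strong peaks did not always hold it. The peaks of Arhgap5 (fold 1080), Fmo5 (219) and Tdo2 (125) had no GGAC over 630, 658 and 568 nt. The 1677-nt peak of Rbm15 held 17 copies and the peak of Ankrd11 held 46.

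Of the 8641 genes called at any age, 5521 (63.9%) were called at 2 weeks. All 4 lists held 2056 of them (37.2% of the 2-week genes), 1607 (29.1%) were in the lists of day 1, 1 week and 2 weeks and not in that of 8 weeks, and 662 were in the 2-week list only. Peak by peak, of the 8765 peaks, 1734 (19.8%) overlapped no peak of another list, 1805 (20.6%) a peak of 1 other list, 3251 (37.1%) of 2 and 1975 (22.5%) of all 3. The median fold was 9.95, 13.5, 20.5 and 48.0 in that order and the median width 180, 210, 269 and 390 nt. Of the 1734 peaks, 1009 lay in genes that were called elsewhere in another list.

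The 662 genes with a peak at 2 weeks only made up 7.66% of the 8641. They numbered 1117 without the day 1 list and 416 when each list was reduced to the 4808 peaks of the shortest. They had weak, narrow peaks, 727 in all, with a median fold of 9.95 and a median width of 180 nt, and 92.3% of these genes had 1 peak. Genes of the other single lists were much alike, at median folds of 11.2 (day 1), 10.2 (1 week) and 12.7 (8 weeks). Their median widths were 181, 179 and 180 nt, and 87.3%, 93.2% and 93.8% of them had 1 peak. Peaks of the 2-week-only genes were more often in the 3′ UTR class (45.5%) than in CDS (24.2%), whereas peaks of genes in all 4 lists were in CDS in 50.7% and in the 3′ UTR in 33.2%. For genes in the day 1, 1 week or 8 weeks list only, CDS held 32.6%, 34.2% and 30.4% of peaks. The 3′ UTR held 37.5%, 34.6% and 36.8% of them. No test of these shares was made, since fold, width and membership moved together. As a share of the genes of the list itself, genes in 1 list only made up 17.1% at day 1, 8.30% at 1 week, 12% at 2 weeks and 14.1% at 8 weeks.

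A few of these genes carried strong peaks, 28 of the 662 with a fold of at least 50. Scd1, the liver's Δ9 desaturase, had 3 peaks in the 3′ UTR of its last exon, at folds of 1790 (chr19:44394481-44395615, minus strand, 1135 nt), 178 and 17.6, and no row at any other age. Slc25a37, the iron importer mitoferrin of red cell precursors, had folds of 518, 13.2 and 8.20, Orm1 455 and Fbxo38 403. Aldh1a1, a retinaldehyde dehydrogenase, had 203 over 3 blocks that reached past the stop codon, Mup20 178, and Cyp4a12a, a male-biased fatty acid ω-hydroxylase, 152 and 86.1, both in the last exon. Tdo2, which opens tryptophan degradation, had 125 over the stop codon and 11.7 further down, Ntm 107, and Qdpr, which regenerates tetrahydrobiopterin, 96.6. All but Fbxo38, Orm1, Mup20, Slc25a37 and Ntm had the strongest peak centred in the 3′ UTR.

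Over all peaks of the 2-week-only genes GGAC was little more frequent than in their windows. It was in 305 of 555 (55.0%, 50.8 to 59.0) against 51.9% of their windows, with 4.27 against 4.16 copies per kb. In genes with a peak in every list it was in 78.5% against 64.2%. The corresponding single-list genes gave 71.4% against 54.7% at day 1, 56.6% against 51.1% at 1 week and 59.6% against 50.9% at 8 weeks. The share at 2 weeks was below that of day 1 (difference -16.4 points, -21.4 to -11.4), while the intervals of the difference from 1 week (-1.66 points, -8.09 to 4.83) and 8 weeks (-4.66 points, -11.1 to 1.92) included 0. Weak peaks are narrow, so the share was also set out by fold. At folds up to 9.95 it was 46.4% in 2-week-only genes and 60.1% in 2-week genes that were also in another list (difference -13.7 points, -19.8 to -7.48), at the same median width of 151 nt. At folds above that and up to 18.2 the shares were 57.1% and 69.8% (-12.7 points, -20.7 to -5.03), and at higher folds 76.2% and 85.2% (-8.98 points, -18.2 to -1.64). Width was not equal in these upper ranges, with medians of 181 and 210 nt and then of 268 and 358 nt. The windows held GGAC in 46.6%, 53.8% and 64.1% for the 2-week-only genes, from the lowest to the highest range of fold, and in 47.2%, 55.6% and 70.8% for the others. Peaks of 2-week-only genes thus lay close to their windows at low folds and above them at high folds, and no test of the difference from the windows was made.

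**Figure D4:**
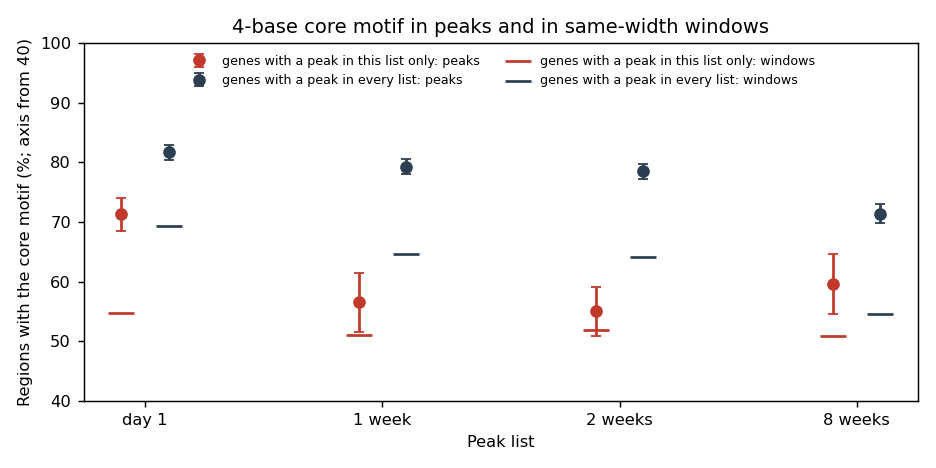
Share of regions that hold the 4-base core motif, in percent on an axis from 40, for peaks (points with 95% Wilson intervals) and for windows of the same width on the same transcripts (bars), in genes with a peak in the named list only and in genes with a peak in every list. For genes with a peak in the 2-week list only the peaks gave 55.0% and the windows 51.9%.

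Most of the metabolic lists had several members that were called at 2 weeks only, to be read against 7.66% of all genes. Of the urea cycle and amino acid catabolism genes, 15 of 17 with a peak in any list were called at 2 weeks (88.2%, 65.7 to 96.7, against 63.9% of all genes). The numbers were 9 at day 1, 8 at 1 week and 6 at 8 weeks, where all genes gave 73.3%, 64.0% and 39.9%. Of the 17 listed genes, 6 (35.3%, against 7.66% of all genes) were called at 2 weeks only. They were Cps1, the entry enzyme of the urea cycle (fold 27.9), Ass1, argininosuccinate synthase (15.2), Gls2, the liver glutaminase (5.66), Tdo2 (125), Mat1a, which makes S-adenosylmethionine, the methyl donor of m6A (3.13), and Ahcy, which removes the product of methyl transfer (11.1). The strongest peaks of all 6 lay in the 3′ UTR. The list had a median best fold of 11 per gene, against 22.2 over all 2-week genes.

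Of the fatty acid oxidation and ketogenesis genes 22 of 26 (84.6%, 66.5 to 93.8, against 63.9% of all genes) were called at 2 weeks. The numbers were 15 at day 1, 14 at 1 week and 11 at 8 weeks, where all genes gave 73.3%, 64.0% and 39.9%. Called at 2 weeks only were 5 (19.2%, against 7.66% of all genes). These 5 were Acadl (fold 1.91) and Acadvl (6.44), the long-chain and very long-chain acyl-CoA dehydrogenases, Acaa2 (4.76) and Acaa1b (2.78), thiolases of mitochondria and peroxisomes, and Decr1 (24.6), which handles unsaturated chains. The strongest peaks of the list were those of Acads, the short-chain dehydrogenase (214, over 3 blocks), Ppara, the fasting receptor that drives these genes (191), Abcd2, a peroxisomal importer (166), and Ppargc1a (67.9). For Acads the best fold was 17.2 at day 1, 21.9 at 1 week, 214 at 2 weeks and 84.6 at 8 weeks.

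Bile acid synthesis and transport genes were called in 19 of 21 (90.5%, 71.1 to 97.3), against 15, 11 and 12 at day 1, 1 week and 8 weeks, and 4 at 2 weeks only, which were Abcb11, the bile salt export pump, Slc51b, Slco1b2 and Fgfr4, the receptor for FGF19-type hormones. Its strongest peaks were on Klb, the co-receptor of Fgfr4 (118), Abcg8, a sterol exporter (92.5), Nr0b2 (73.8) and Nr1h4 (72.6), the bile acid receptor FXR. The peaks of Abcg8, Nr0b2 and Nr1h4 all covered the stop codon. Drug metabolism genes were called in 27 of 33 (81.8%) at 2 weeks, against 17, 20 and 15 in the same order of ages. Called at 2 weeks only were 4 (12.1%), Gstp1, Cyp2c29, Cyp2d10 and Cyp2d22. Ahr (1120), Fmo5 (219), Ugt2b36 (148) and Ugt2b1 (134) led this list, and reads of the Cyp2 and Ugt2b families may be shared between near-identical members. Genes of glucose and glycogen metabolism were called in 16 of 19 (84.2%, against 63.9% of all genes). They were led by the glycogen targeting subunits Ppp1r3c (367) and Ppp1r3b (309) and by the kinase Sik1 (282). Ugp2, Slc37a4 and Galm (15.8% of the list) were called at 2 weeks only. Secreted plasma proteins were called in 19 of 24 (79.2%), led by Apoa5 (191), F7 (131) and F10 (83.7). Ahsg, Hpx, Plg and Trf (16.7% of the list) were called at 2 weeks only, at folds between 1.78 and 10.4. The lists of lipid synthesis lay nearer to all genes. Lipogenesis and triglyceride genes were called in 13 of 20 (65.0%), with Scd1 and Acly, the ATP citrate lyase, at 2 weeks only, and genes of cholesterol synthesis and uptake in 11 of 15 (73.3%), with only Lss, the lanosterol synthase, called at no other age (6.67%).

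Over the metabolic lists as a whole, 142 of 175 members (81.1%) had a 2-week peak and 29 (16.6%) had one at 2 weeks only, with a median best fold of 19.1 and 58.4% of 231 peaks in the 3′ UTR. Over the lists of regulators, 166 of 207 (80.2%) were called and 5 (2.42%) at 2 weeks only, with a median best fold of 46.5 and 61.5% of 405 peaks in the CDS. The lists were assembled by hand with earlier results of these data known, and no test of a list was made.

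**Figure D5:**
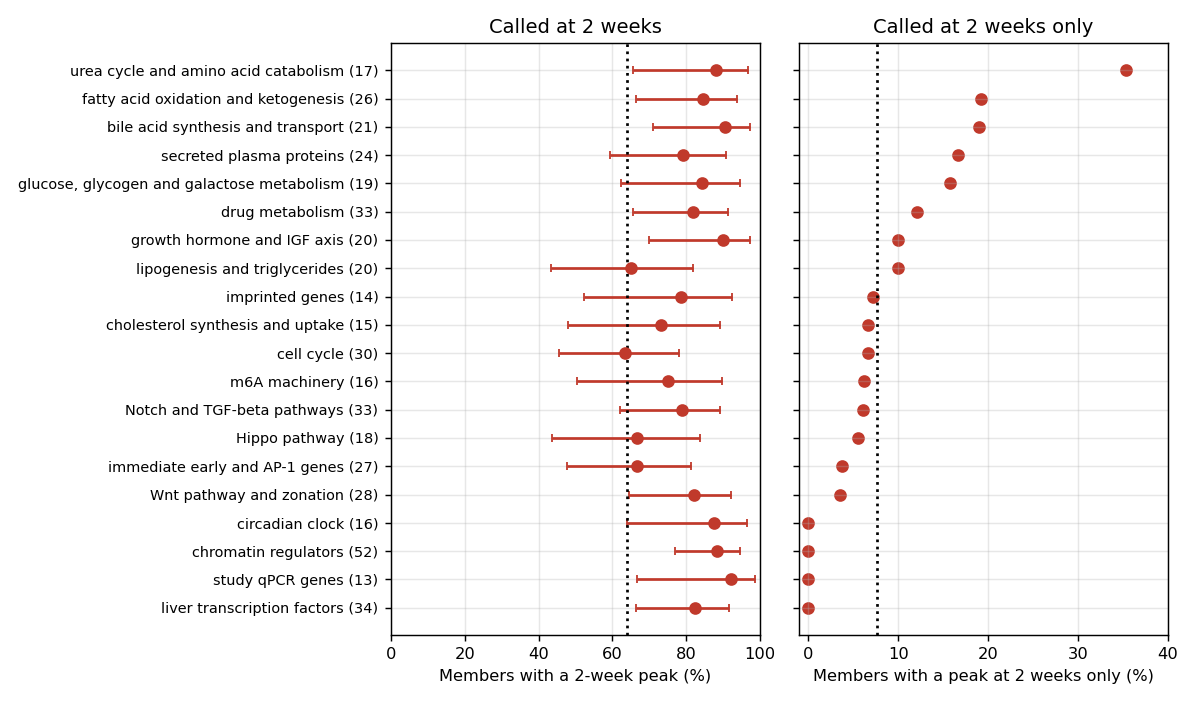
Percent of the members with a peak in any list (their number in brackets) that had a 2-week peak (left, with 95% Wilson intervals) and that had a peak at 2 weeks only (right). Dotted lines mark all genes, 63.9% and 7.66%. In the right panel the urea cycle list is at the top at 35.3%, the cholesterol list lies at 6.67%, and 4 of the lists drawn, which leave out cell type markers, lie at 0.

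Among liver transcription factors 28 of 34 (82.4%, 66.5 to 91.7) were called at 2 weeks and none was called at 2 weeks only. The numbers at day 1, 1 week and 8 weeks were 28, 28 and 27. All genes gave 63.9% at 2 weeks, 73.3% at day 1, 64.0% at 1 week and 39.9% at 8 weeks. Of the 62 peaks of these factors at 2 weeks 31 were in the 3′ UTR, and 30.6% of middles lay within 200 nt of the stop codon. Cited2, a co-regulator that binds CBP, had folds of 340 and 132. Foxa2, a pioneer factor of the liver, had 279, 80.5 and 10.5, with Foxa1 at 21.1 and Foxa3 at 38.1. Onecut2 had 4 peaks (260 to 58.0), Nr2f2 reached 196, Rxra, the partner of the metabolic nuclear receptors, 178, Cebpa 120 and Cebpb 45.7. For Cebpa the best fold in the lists was 309 at day 1, 361 at 1 week, 120 at 2 weeks and 52.3 at 8 weeks, and 1 of its 3 peaks at 2 weeks (fold 5.27, in the 3′ UTR) overlapped none elsewhere.

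Some factors had their strongest row at 2 weeks. The best fold of Ppara was 10.9 at day 1, 17.9 at 1 week, 191 at 2 weeks and 108 at 8 weeks, and the peak over its stop codon was overlapped at 8 weeks and not at the earlier ages. Prox1, which sets hepatocyte fate, had 15.8, 43.1, 107 and 16.2 in the same order, Nr1i3, the drug receptor CAR, 2.92, 8.54, 49.8 and 25.4, and Nr1h4 23.8, 31.0, 72.6 and 7.23. Klf15, a factor of amino acid catabolism in the fasted liver, had 1 peak at 2 weeks (chr6:90466601-90467492, CDS of exon 3, fold 72.0) and 1 at 8 weeks (fold 49.5), and none at day 1 or 1 week. Hhex was likewise called at 2 weeks (12.2) and 8 weeks (28.0) only. Hnf4a was called at 1 week (54.7) and 8 weeks (51.4) and not at 2 weeks. A best fold can come from different sites of a gene at different ages, and with 1 list per age these differences have no replicate check.

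Genes of the m6A machinery carried peaks themselves. Of 16 that were called at any age, 12 were called at 2 weeks (75.0%, 50.5 to 89.8, an interval that includes the 63.9% of all genes). The numbers were 12 at day 1, 8 at 1 week and 11 at 8 weeks, where all genes gave 73.3%, 64.0% and 39.9%. Of the 25 peaks at 2 weeks 14 were in CDS and 2 in the 3′ UTR. Of the adaptors of the methylation complex, Rbm15b had 4 rows with folds of 200, 199, 32.2 and 17.0, of which the first 2 overlap each other, and Rbm15 had 3 with folds of 171, 165 and 14.6, the second being 1677 nt wide. Virma had folds of 46.3 and 7.61, Zc3h13 33.8 and 10.5, and Wtap 14.1. Mettl3 had no peak in any list. Of the erasers, Fto had 1 peak of fold 46.8 in exon 3 and Alkbh5 had folds of 18.7 and 10.5. Of the readers, the nuclear Ythdc1 reached 209 over 2 blocks of exons near its start, Ythdf1 had 3 peaks in exon 4 (53.3, 42.7 and 17.0) and Ythdf2 had 20.5 and 8.78. Hnrnpc was called at 2 weeks only, at fold 9.37.

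Of the lists of other regulators, those of chromatin and the circadian clock had no member called at 2 weeks only, and the immediate early and Wnt lists had Btg1 and Dvl2. The Hippo list had Ajuba, and the Notch and TGF-beta list Hes6 and Smad1. The growth hormone and IGF list, which was not pooled with the regulators above, had Igfbp2 and Igfbp4. Chromatin regulators were called in 46 of 52 genes (88.5%, against 63.9% of all genes), with none at 2 weeks only. They had 145 peaks, 75.9% of them in CDS, and a median best fold of 66.9. Kdm6b, a demethylase of H3K27, had 689, Nsd1 516, Tet3 458 and Kmt2d 304, and each of these 4 peaks was overlapped in all 3 other lists. Immediate early and AP-1 genes had the highest median best fold of the lists, 178, with Jun at 444 and Jund at 290. They were called in 18 of 27 genes (66.7%), near the 63.9% of all genes. Circadian genes were called in 14 of 16 (87.5%), led by Nr1d2 (208). Rora had a peak of fold 153 over its stop codon that overlapped none in the other lists. In the Wnt list, called in 23 of 28 (82.1%), Bcl9l (1330), Apc (787) and Fzd7 (540) led. Growth hormone and IGF genes were called in 18 of 20, Hippo genes in 12 of 18, and Notch and TGF-beta genes in 26 of 33. Of the 13 genes that the study chose for qPCR, 12 were called and Hnf4a was not. By m6A-RIP-qPCR the study did measure m6A on Hnf4a at 2 weeks, and found less of it in livers without Mettl3 than in controls. The 12 genes are not independent evidence, since the study chose them.

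Of the 30 cell cycle genes with a peak in any list 26 were called at day 1, 21 at 1 week, 19 at 2 weeks (63.3%, 45.5 to 78.1, against 63.9% of all genes) and 3 at 8 weeks, where all genes gave 39.9%. Mki67 had a best fold of 21.9 at day 1, 161 at 1 week, 256 at 2 weeks and 8.46 at 8 weeks, and Cenpf, a kinetochore protein, had 9 peaks at 2 weeks, with a highest fold of 213, and none at 8 weeks. Imprinted genes were called in 10, 13, 11 and 2 of 14 in the same order of ages, where all genes gave 73.3%, 64.0%, 63.9% and 39.9%. Igf2, the fetal growth factor, had a 3′ UTR peak of fold 75.0 at 2 weeks that overlapped none in another list. Its other 2-week peak, also in the 3′ UTR (fold 1.46), was overlapped at day 1 and 1 week. The best fold of Igf2 over all its peaks was 1.86 at day 1 and 3.20 at 1 week, and it had no peak at 8 weeks.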

How the data were processed

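m6A-RIP libraries and inputs of WT liver were aligned by the authors to mm10 with HISAT2, peaks were called with exomePeak with the longest isoform kept per gene, and motifs were sought with HOMER, per the labels and the study's methods. The deposited tables give each peak as blocks with a p-value, a log10 score of the p-value and of the FDR (minus infinity was set to -400), the fold enrichment of IP over input, the number of blocks, class and biotype. The deposited fold ratio and p-value are the authors' own comparison of IP with input at 1 age, and no column comparing ages was used. No read counts were used, so depth is unknown. The table labelled 4 weeks held the same 8765 rows, apart from 12 gene names that a spreadsheet had altered in 1 of them, and was not used. These rows hold as many distinct gene names as the study counts at 2 weeks, not at 4 weeks. The number of peaks did not match, since the study reports more peaks at 2 weeks than these 8765 rows. It likewise reports more peaks than the deposited list holds at each other age compared here. The cause of this difference was not tested.

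Coordinates are 1-based. Peaks overlap with at least 1 shared base. Middles were placed on the longest coding transcript of GENCODE M21, and windows of equal width on the same transcripts served as background. Shares have Wilson intervals and differences Newcombe intervals (statsmodels 0.14.6, Python 3.11.15, pandas 2.3.3). Scripts were tested on simulated data. Named were all transcription factor, qPCR and m6A machinery genes with a 2-week peak, the 10 genes with most peaks, with the highest fold, with the highest fold at 2 weeks only and of other biotypes, the 5 peaks with most blocks and the 5 widest, and up to 4 leading genes of each other list. Members called at 2 weeks only were named for each list after their values were seen, as were best folds across ages. The members and lists were chosen with earlier results of these data known. Tested alternatives were an FDR or fold minimum, protein-coding genes only, the overlap rule, the list length and leaving out each other list.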

Additional observations from a re-analysis of the deposited data

How the results depend on the processing

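Of 52 values recomputed under another setting, 34 stayed within counting error, or within 1.5 times for a count, and 18 moved. With a log10 FDR of at most -3 the share of genes with 1 peak was 69.6%, CDS 46.5%, peaks of more than 1 block 4.71%, the median width 299 nt, GGAC 78.7%, long exons 92.7%, and peaks without overlap 16.7%. With a fold of at least 5, GGAC was in 74.7% and long exons held 92.9%. With protein-coding genes only, the 3′ UTR and stop codon share was 37.3% and the CDS share 47.1%. DRACH in place of GGAC gave 98.4%, and last exons left out gave 80.6% in long exons. Peaks without overlap were 31.0% with a reciprocal overlap of 50% and 18.9% with an FDR of at most 0.05 in every list.

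The genes called at 2 weeks only numbered 416 when each list was reduced to the 4808 peaks of the shortest, and 1117 without the day 1 list, against 662. With an FDR of at most 0.05, a log10 FDR of at most -3 or a fold of at least 5 in every list they numbered 623, 483 and 685, of which 598, 365 and 582 were among the 662. Chosen after seeing the data were the GGAC share in genes of every list (78.5%), joined loci, and the removal of genes that overlap another gene's peak, and the last 2 did not move their values. No paired analysis was possible because each age has 1 list. The unknown depth limits every absence from a list.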
